A study of Mus musculus with 6 samples.

Results

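The 42 genes described here are read as marks of dividing cells: 25 belong to the G2/M group, switched on before and during mitosis, and 17 to the S-phase group, switched on for DNA synthesis. All 42 were taken by name from the 32285 genes of the expression matrices by a rule that lists names and holds no measured value, although earlier results of these data were known when the list was made. They were followed in CD3+ T cells sorted from intracranial CT2A gliomas, tumors of a mouse glioma line grown in the brains of wild-type C57BL/6J mice that entered the study at 6 to 8 weeks of age. Tumors were taken at day 13 (16 mice, 4 pooled per replicate) or day 19 (4 mice). Each day gave 1 droplet capture with gene expression, 138 antibody tags and T cell receptor contigs, so each day is 1 sample. Neither day had a tumor-free control, the sample titles name no treatment, and both days share the same mouse strain, tumor line and sort. Of 8359 and 4295 barcodes with a receptor contig, the cells described had at least 5000 gene UMIs (unique molecular identifiers, which count captured RNA molecules) and at most 10% mitochondrial UMIs, which left 4632 cells at day 13 and 3215 at day 19.

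A T cell that has met its antigen leaves rest, copies its DNA in S phase and divides in M phase, so dividing cells are where a clone grows. S-phase genes make nucleotides (Rrm1, Rrm2, Tyms, Tk1, Dut) and load and run the replication fork (Mcm2 to Mcm7, Cdc6, Cdc45, Gins2, Pcna), while Ccne1 and Ccne2 encode the E cyclins that start the phase. G2/M genes encode the mitotic kinase Cdk1 with its cyclins (Ccna2, Ccnb1, Ccnb2), the kinases Aurka, Aurkb, Plk1, Bub1 and Bub1b, the motors Kif11, Kif15, Kif20a and Kif23, centromere proteins (Cenpa, Cenpe, Cenpf), spindle proteins (Nusap1, Tpx2, Prc1, Hmmr), the destruction machinery Cdc20 and Ube2c, the survivin gene Birc5, and Top2a and Mki67, which untangle and coat mitotic chromosomes. In tumors, Tcf7-expressing, Pdcd1-expressing CD8 T cells are known as a progenitor pool of exhausted cells, and cells that express Havcr2 and have lost Tcf7 as its terminally exhausted end.

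The start regions of the members show which of the known cell cycle control words each gene carries, and 7 are printed because the values below turn on these genes. Capitals mark 3 kinds of word, searched on both strands: the CHR (TTTGAA, with the variant TTCGAA), a word bound by the complex that holds G2/M genes silent outside division, CCAAT, the word of the factor NF-Y, and E2F words (TTCCCGC and its variants TTCGCGC as well as TTGCCGC, and lastly TTGGCGC), known from S-phase genes. TTCGAA reads the same on both strands, and E2F words can overlap each other and CCAAT. Each line gives the 240 bases before the start of the gene, 5′ to 3′ on the gene's strand, from RefSeq on GRCm38.p6. They lie at chr7:135716380-135716619 (minus strand) for Mki67, chr11:99024190-99024429 (minus) for Top2a, chr10:69352913-69353152 (minus) for Cdk1, chr13:100786487-100786726 (minus) for Ccnb1, chr12:24708014-24708253 (plus) for Rrm2, chr2:132253181-132253420 (minus) for Pcna and chr8:75109269-75109508 (plus) for Mcm5.
Mki67: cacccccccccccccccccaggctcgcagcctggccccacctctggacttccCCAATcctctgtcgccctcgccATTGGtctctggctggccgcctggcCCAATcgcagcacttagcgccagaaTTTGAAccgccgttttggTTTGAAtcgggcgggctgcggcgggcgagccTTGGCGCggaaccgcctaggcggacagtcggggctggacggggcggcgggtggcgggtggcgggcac
Top2a: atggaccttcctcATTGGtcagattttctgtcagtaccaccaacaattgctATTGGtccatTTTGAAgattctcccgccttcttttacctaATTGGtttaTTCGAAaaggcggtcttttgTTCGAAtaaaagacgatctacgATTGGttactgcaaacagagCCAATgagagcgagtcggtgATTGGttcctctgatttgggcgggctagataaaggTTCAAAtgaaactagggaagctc
Cdk1: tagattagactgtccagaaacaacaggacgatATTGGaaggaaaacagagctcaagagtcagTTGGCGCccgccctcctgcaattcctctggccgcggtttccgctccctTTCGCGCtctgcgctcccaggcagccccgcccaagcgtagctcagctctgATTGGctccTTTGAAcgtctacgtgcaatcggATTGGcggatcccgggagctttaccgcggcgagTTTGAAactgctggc
Ccnb1: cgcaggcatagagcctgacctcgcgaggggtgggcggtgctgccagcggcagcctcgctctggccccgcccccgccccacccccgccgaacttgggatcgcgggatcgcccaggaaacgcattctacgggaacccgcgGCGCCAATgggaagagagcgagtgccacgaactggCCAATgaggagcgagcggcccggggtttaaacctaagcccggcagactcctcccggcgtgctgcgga
Rrm2: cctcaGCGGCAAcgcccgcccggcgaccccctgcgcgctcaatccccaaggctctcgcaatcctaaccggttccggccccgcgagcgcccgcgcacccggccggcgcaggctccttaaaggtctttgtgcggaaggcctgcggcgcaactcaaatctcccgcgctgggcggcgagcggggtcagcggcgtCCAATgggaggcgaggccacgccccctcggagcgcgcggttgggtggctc
Pcna: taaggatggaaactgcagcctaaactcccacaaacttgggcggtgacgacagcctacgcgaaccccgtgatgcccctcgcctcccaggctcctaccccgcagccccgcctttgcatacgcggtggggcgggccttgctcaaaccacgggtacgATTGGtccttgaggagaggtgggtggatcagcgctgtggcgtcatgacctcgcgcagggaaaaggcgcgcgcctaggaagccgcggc
Mcm5: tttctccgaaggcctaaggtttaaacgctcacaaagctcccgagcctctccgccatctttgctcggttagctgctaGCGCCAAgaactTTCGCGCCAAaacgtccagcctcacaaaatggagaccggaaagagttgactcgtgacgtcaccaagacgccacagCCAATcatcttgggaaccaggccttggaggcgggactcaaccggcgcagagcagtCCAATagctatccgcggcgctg
In these stretches Mki67, Top2a and Cdk1 held CHR and CCAAT words side by side, and Mki67 and Cdk1 an E2F word as well. Ccnb1, Rrm2 and Mcm5 held E2F and CCAAT words and no CHR word, and Pcna held a single CCAAT.

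Over the members with an entry, in windows of 300 bases that run 50 bases past the start, 17 of 21 G2/M genes (81.0%) held a CHR word against 3 of 14 S-phase genes (21.4%) and 21.7% of the 27025 genes listed. An E2F word stood in 50% of the S-phase members, 23.8% of the G2/M members and 10.9% of all genes. CHR and CCAAT stood together in 76.2% of the G2/M members and in 8.61% of all genes. The other G2/M genes of a second list (41 of 50 with an entry) held a CHR word in 73.2%, and the other S-phase genes (28 of 37) an E2F word in 75%. Birc5, Nusap1, Tyms, Tk1, Ccne1 and Dut held none of the words in this window, which says only that these letters are not there. Ccna2, Aurkb, Kif20a, Tpx2, Mcm4, Ccne2 and Gins2 had no entry. A match is a description of letters and not a binding site, and factor binding was not measured.

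The contigs of each day came in 4 sets, which the labels do not tie to mice, and values are given for each as the only view of spread. They are parts of 1 capture and not replicates, so no test was made, and each interval is a 95% interval that covers counting error only. The sets held 610, 1625, 1493 and 904 cells at day 13 and 344, 1561, 622 and 688 at day 19, with a median of 7608 and 10080 gene UMIs per cell. The days shared 28 barcodes. By mRNA, 2959 cells at day 13 and 1800 at day 19 were CD8 cells (Cd8a or Cd8b1 and no Cd4), 797 and 794 were CD4 cells, and 876 and 621 had neither or both and enter no class. Among CD4 cells thinned to 5000 UMIs, 196 and 222 had a Foxp3 UMI and are called Foxp3-positive, and 601 and 572 had none and are called Foxp3-negative. Before thinning 34 and 65 of the Foxp3-negative cells had a Foxp3 UMI, at 14.56 and 25.08 CPM over the class. The 6 T cell markers had UMIs in every class and summed to 3334 and 3372 CPM (UMIs of a gene divided by all gene UMIs of the group, scaled to a common total) in CD8 cells. The 3 regulatory markers Foxp3, Il2ra and Ikzf2 summed to 1098 and 1188 CPM in Foxp3-positive and to 156.2 and 285.6 CPM in Foxp3-negative CD4 cells. All 9 macrophage markers had UMIs as well: they summed to 1888 and 2568 CPM in CD8 cells, 7449 and 8855 CPM in Foxp3-negative and 6256 and 7310 CPM in Foxp3-positive CD4 cells, and their part in the results was not tested except where a value without such droplets is given. Doublets were not called, and neither erythroid marker had a UMI in CD8 or Foxp3-negative CD4 cells.

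Most CD8 cells had UMIs of no G2/M member or of 1, and few had UMIs of many. When each CD8 cell was thinned to 5000 UMIs, 55.02% of the cells at day 13 had no UMI of any G2/M member, 25.38% had UMIs of 1 member and 7.097% of 2. Another 5.745% had UMIs of 11 to 25 members, and 90.59% of those also had at least 3 S-phase members, against 23.59% of the cells with no G2/M member. At day 19, 48.61% of CD8 cells had no G2/M member and 10.72% had 11 to 25. A cell with at least 3 members of a list is counted below. This is a range of a continuous score and not a cell type: 210 CD8 cells with 2 members and 70 with 3 lay at its edge at day 13, and 123 and 41 at day 19. Cells high in the score were also deep in UMIs before thinning, with a median of 18560 gene UMIs in those with 11 to 25 members and 7032 in those with none at day 13.

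Free RNA was measured in droplets that hold no cell. Droplets with 10 to 100 UMIs carried 587.4 CPM of G2/M members at day 13 and 1386 CPM at day 19, and 600.0 and 1035 CPM of S-phase members. In 5000 UMIs that is 2.94 and 6.93 UMIs of the G2/M group. Droplets without contigs and without a Cd3d, Cd3e or Cd3g UMI (1017 and 343, median 9156 and 9634 UMIs) had at least 3 G2/M members in 1.475% (0.828 to 2.42%) and 3.79% (2.03 to 6.39%), and at least 3 S-phase members in 4.425% and 9.329%. Every T cell class lay above these shares on both days. In CPM the CD4 classes did not all lie above free RNA: Foxp3-negative cells had 626.7 and 599.7 CPM of G2/M and S-phase members at day 13 and 770.4 and 863.8 CPM at day 19. Foxp3-positive cells had 377.9 and 479.8 CPM at day 13, under free RNA for both lists, and 1496 and 1278 CPM at day 19. CD8 cells lay above free RNA for both lists, at 1185 and 1181 CPM at day 13 and 1755 and 1389 CPM at day 19. At day 19 G2/M sums of Pdcd1-negative CD8 cells (1337 CPM) and CD8 cells alone in their clonotype (1319 CPM) lay under free RNA. Their S-phase sums, 1308 and 1460 CPM, lay above it. Free RNA was itself higher at day 19 than at day 13 for both lists. The part of free RNA in the CD4 and CD8 sums, and in their differences between days, was not tested.

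**Figure D1:**
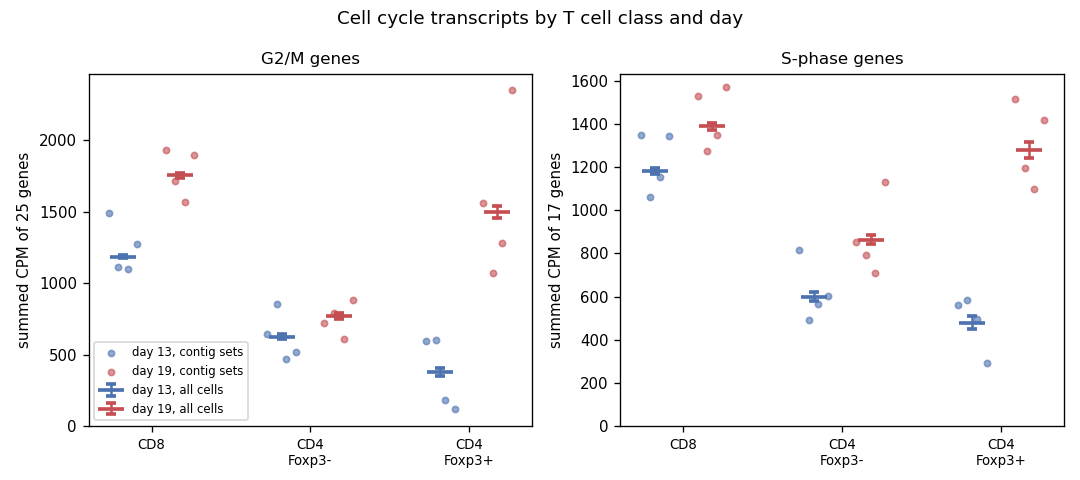
Summed CPM of the 25 G2/M members and of the 17 S-phase members (UMI sums, not thinned), by class and day. Bars are all cells of a class with 95% exact Poisson intervals and points are the 4 contig sets. The G2/M sum of CD8 cells was 1185 CPM at day 13 and 1755 CPM at day 19, and that of Foxp3-positive CD4 cells 377.9 and 1496 CPM.

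In summed CPM, CD8 T cells carried more G2/M RNA at day 19 than at day 13, with a smaller difference in S-phase RNA. At least 3 G2/M members were found in 12.5% of CD8 cells at day 13 (11.33 to 13.75%, 2959 cells) and in 21.56% at day 19 (19.68 to 23.53%, 1800 cells). The sets read 15.18, 12.21, 10.92 and 14.39% at day 13 and 33.17, 18.94, 19.17 and 23.78% at day 19, so those of the days did not overlap. Without thinning the shares were 17.17 and 29.89%, where the median depth was 7449 UMIs at day 13 and 9846 at day 19. Summed over the 25 genes, G2/M RNA was 1491, 1112, 1096 and 1273 CPM in the day 13 sets and 1930, 1713, 1570 and 1894 CPM in the day 19 sets, again apart. In all cells that was 1185 and 1755 CPM, a log2 ratio of 0.57 (0.55 to 0.59). The 17 S-phase genes summed to 1350, 1060, 1153 and 1345 CPM at day 13 and to 1527, 1275, 1347 and 1569 CPM at day 19, where the sets of the days overlapped, with a log2 ratio of 0.23 (0.21 to 0.26). The share of cells with at least 3 S-phase members was higher at day 19 too, at 32.17% (30.49 to 33.89%) and 44.28% (41.97 to 46.61%). Its sets read 37.5, 31.65, 31.55 and 31.06% at day 13 and 57.29, 39.49, 42.5 and 50.27% at day 19, which did not overlap. The ratio of the G2/M sum to the S-phase sum was 1.003 at day 13 and 1.264 at day 19. In such sums more cells in division and more RNA per dividing cell cannot be told apart.

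All 25 G2/M members were higher at day 19 in CD8 cells, by log2 0.38 to 0.78, and 14 of them passed a 1.5-fold ratio, as did 1 of 17 S-phase members, where 12.2% of all 14894 genes with more than 3 UMIs did. None was more than 1.5-fold lower (12.5% of all genes). The median log2 ratio was 0.60 over the G2/M members, 0.23 over the S-phase members and -0.03 over all genes. Mki67, the standard antigen for dividing cells, read 109.5, 82.54, 86.96 and 94.39 CPM in the day 13 sets and 151.7, 134.3, 121.4 and 143.5 CPM in the day 19 sets. Every day 19 set lay above every day 13 set, and the log2 ratio was 0.60 (0.53 to 0.68). Cdk1, the kinase that starts mitosis, read 58.72, 37.45, 38.21 and 44.39 CPM and then 80.37, 68.41, 61.76 and 73.62 CPM, with a log2 ratio of 0.75 (0.63 to 0.86). Top2a, the enzyme that untangles DNA before it is pulled apart, read 156.1, 118.4, 114.1 and 119.4 CPM and then 203.4, 177.9, 171.9 and 223.1 CPM (0.64). Day 19 sets were above all those of day 13 for these 3 genes, and for 16 G2/M and 3 S-phase members in all (Tk1, Gins2 and Dut), where 8.69% of the 11583 genes with at least 50 UMIs were apart in that direction. Ccnb1, the cyclin partner of Cdk1, was less far apart: 28.79, 20.78, 23.67 and 24.46 CPM against 39.49, 29.41, 28.01 and 38.05 CPM, log2 ratio 0.47 (0.31 to 0.62), with the lowest day 19 set under the highest of day 13. The highest ratios were those of Tk1, the thymidine kinase of the S-phase group (43.37 and 74.64 CPM, 0.78), the cytokinesis motor Kif20a (9.904 and 16.96 CPM, 0.78) and the spindle protein Nusap1 (0.75).

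In CPM the S-phase genes differed less than the G2/M genes between the days in CD8 cells, and some of the replication genes were nearly level. Pcna, the clamp that holds the DNA polymerase, read 117.7, 106.0, 101.9 and 120.5 CPM at day 13 and 138.7, 106.7, 104.6 and 124.5 CPM at day 19 (0.07, -0.00 to 0.15). Mcm5, part of the helicase ring, read 88.36, 71.17, 81.31 and 96.93 CPM and then 99.94, 71.95, 85.94 and 109.4 CPM (0.09, 0.00 to 0.18). The sets of the days overlapped for both. Rrm2, the small subunit of ribonucleotide reductase, had a log2 ratio of 0.12, Tyms, the thymidylate synthase, 0.33, and the E cyclin genes Ccne1 0.21 (0.01 to 0.41) and Ccne2 0.06 (-0.32 to 0.45). Others were higher at day 19 with intervals above 0, among them Gins2 (0.44, 0.27 to 0.61), Cdc45 (0.41), Dut (0.39), Rrm1 (0.34), Mcm7 (0.30) and Mcm2 (0.30). The lowest were Ccne2, the origin-loading gene Cdc6 (-0.00, -0.26 to 0.25) and the helicase gene Mcm6 (0.02, -0.04 to 0.09). The size of the CD8 difference depended on which cells entered: among cells with at least 8000 UMIs the G2/M log2 ratio was 0.22 and no member passed the fold, while in thinned sums it was 0.86 with 27 members past the fold and without the 5% deepest cells of each class 0.99 with 30. The S-phase ratio was -0.04 at 8000 UMIs. Here and below, the share of all genes past the fold is given for the main setting only. Counts of members under changed settings can therefore not be read against a background.

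**Figure D2:**
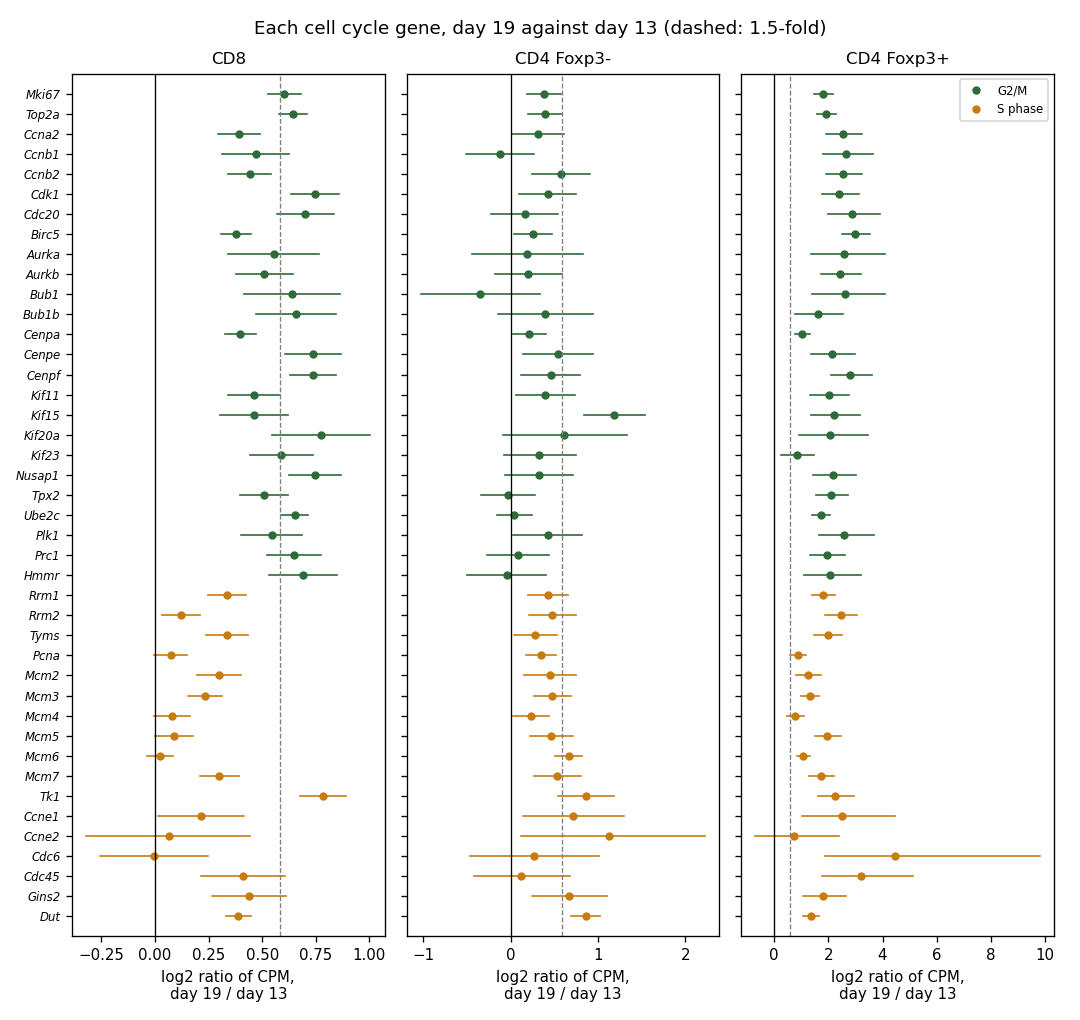
Log2 ratio of day 19 to day 13 of each of the 42 members (CPM of UMI sums, 95% counting intervals) in CD8, Foxp3-negative CD4 and Foxp3-positive CD4 cells, with G2/M and S-phase members apart; the horizontal scales differ between panels. G2/M members lie to the right of most S-phase members in CD8 cells, and every member lies right of 0 in Foxp3-positive cells.

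Foxp3-negative CD4 cells hold the conventional helper cells, with some cells (34 and 65) that had a Foxp3 UMI before thinning. Between the days they differed less than CD8 cells in the G2/M sum and more in the S-phase sum. The share of cells with at least 3 G2/M members was 9.318% at day 13 (7.115 to 11.93%, 601 cells) and 16.08% at day 19 (13.17 to 19.36%, 572 cells), with sets at 10.81, 9.29, 8.791 and 8.8% and then 27.5, 12.37, 16.38 and 20.8%. Each day 19 set had a higher share than any of day 13. The G2/M sums did overlap, at 646.2, 856.7, 466.7 and 516.6 CPM against 720.9, 791.4, 609.6 and 881.1 CPM, with a log2 ratio of 0.30 (0.24 to 0.36). S-phase sums read 816.1, 493.5, 566.5 and 604.2 CPM and then 853.0, 793.8, 710.5 and 1130 CPM (0.53). Of the members, 2 of 25 G2/M and 6 of 17 S-phase genes passed 1.5-fold higher (12.8% of all genes), close to the background for the G2/M group. Those of the G2/M group were the spindle motor Kif15, at 29.77, 12.7, 10.42 and 14.98 CPM against 28.77, 42.85, 25.23 and 32.76 CPM (1.18, 0.84 to 1.54), and Kif20a (0.61, from 28 and 49 UMIs). Dut, which clears dUTP from the nucleotide pool, read 101.6, 55.75, 75.68 and 74.88 CPM and then 116.8, 127.0, 108.6 and 178.4 CPM (0.86), and Tk1 had the same ratio of 0.86. For Dut, Mcm6, Cenpe and Mki67, 4 of the 41 members with at least 50 UMIs, the sets of the days were apart (6.74% of all genes). Mki67 read 69.18, 70.66, 52.1 and 41.93 CPM against 98.16, 73.55, 70.77 and 78.98 CPM (0.38), while Ccnb1 (-0.12, -0.51 to 0.27), the mitotic checkpoint kinase gene Bub1 (-0.35, -1.03 to 0.33), the hyaluronan receptor and spindle gene Hmmr (-0.05) and Tpx2 (-0.03) were lower at day 19 within intervals that span 0. The count of 8 members was 13 without day 13 set 1 and 5 without day 13 set 3, and at a depth of 2000 UMIs it was 38. There the G2/M ratio was 1.16 and the S-phase ratio 0.82, and in sums of thinned counts they were 0.68 and 0.51, so the order of the groups of genes turned.

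Foxp3-positive CD4 cells, the regulatory T cells that restrain other T cells, had the largest difference between days of the 3 classes in both groups of genes at the depth of 5000 UMIs. At least 3 G2/M members were found in 8.673% at day 13 (5.134 to 13.52%, 196 cells) and in 28.83% at day 19 (22.96 to 35.27%, 222 cells). Sets read 11.76, 13.64, 8.511% and, in the fourth, 0 of 49 cells, which allows a share of up to 6.12%, against 36.0, 25, 21.88 and 37.74% at day 19. The lowest day 19 set lay above the highest of day 13. The share with at least 3 S-phase members was 18.37% (13.21 to 24.51%) and 41.89% (35.32 to 48.68%), with sets that overlapped by a narrow margin: 11.76, 15.15, 25.53 and 20.41% against 48.0, 40.18, 25 and 52.83%. G2/M sums read 598.6, 600.8, 181.2 and 123.1 CPM and then 1561, 1072, 1279 and 2354 CPM, a log2 ratio of 1.99 (1.88 to 2.10). S-phase sums went from 479.8 to 1278 CPM (1.41). The day 19 cells were deeper as well, with a median of 12960 UMIs against 8587, and 67.12% against 52.55% of droplets had at least 2 macrophage markers. Without those droplets the G2/M ratio was 2.33 and the S-phase ratio 1.46.

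All 25 G2/M and 17 S-phase members were past 1.5-fold higher at day 19 in Foxp3-positive cells, where 16.3% of all genes were. Among those with at least 50 UMIs, 19 of 25 and 14 of 14 had every day 19 set above every day 13 set (8.52% of all such genes). Birc5, which encodes survivin, read 16.63, 37.18, 2.324 and 3.518 CPM at day 13 and 114.2, 103.2, 120.6 and 204.5 CPM at day 19 (3.0, 2.49 to 3.55). Cdc20, which triggers the end of metaphase, read 16.63, 4.462, 2.324 and 1.759 CPM and then 37.18, 35.46, 45.22 and 46.74 CPM (2.89, 2.00 to 3.92). The day 13 levels of these genes rest on few molecules in sets 3 and 4. Mki67 read 69.28, 58.0, 11.62 and 24.63 CPM and then 132.8, 105.7, 127.1 and 226.7 CPM (1.82, 1.48 to 2.17). Cdk1 read 13.86, 19.33, 0 and 7.037 CPM and then 82.32, 36.11, 43.07 and 93.47 CPM (2.41, 1.77 to 3.12). Day 13 sets 1 and 2 were the higher ones for both, and all lay under every day 19 set. Top2a had a log2 ratio of 1.92, Ccnb1 2.65 (1.79 to 3.64, from 12 and 120 UMIs) and the centromere gene Cenpf 2.80.

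The replication genes differed in the same direction in regulatory cells. Mcm5 read 30.48, 22.31, 32.53 and 5.278 CPM at day 13 and 90.29, 83.18, 71.07 and 84.13 CPM at day 19 (1.96, 1.5 to 2.46). Pcna, at 63.74, 63.95, 60.41 and 63.33 CPM against 119.5, 105.7, 122.7 and 126.2 CPM, had the lower ratio of 0.87 (0.58 to 1.17), with sets close together within each day. Rrm2 was at 2.45, Tyms at 1.98 and Mcm4 at 0.78 (0.48 to 1.09), and the cytokinesis motor Kif23 at 0.85 (0.24 to 1.48). Rare members had wide intervals: Cdc45, which opens the fork, from 4 UMIs (3.21, 1.77 to 5.13), Ccne1 from 4 (2.49, 1.01 to 4.45), Ccne2 from 6 (0.74, -0.69 to 2.38) and Cdc6 from 1 UMI (4.45, 1.88 to 9.80). Leaving out 1 set at a time moved the G2/M ratio between 1.65 and 2.48, with 40 to 42 members past the fold, and it was 1.17 at a depth of 8000 UMIs. At 2000 UMIs it was 0.70, below the 1.16 of Foxp3-negative cells. Split by Pdcd1, the gene of the inhibitory receptor PD-1, both subsets were higher at day 19: the G2/M sum was 362.7 and 1733 CPM in Pdcd1-negative and 408.1 and 1244 CPM in Pdcd1-positive regulatory cells.

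Between classes on the same day, CD8 cells had higher CPM sums than Foxp3-negative CD4 cells. Their G2/M shares were 12.5% (11.33 to 13.75%) and 9.318% (7.115 to 11.93%) at day 13, in intervals that overlap. At day 19 they were 21.56% (19.68 to 23.53%) and 16.08% (13.17 to 19.36%). Without thinning the shares were 17.17 and 15.47% at day 13 and 29.89 and 32.17% at day 19, where the order turned. With at least 2 members the day 19 order turned too (28.39 and 32.17%). Against Foxp3-negative CD4 cells at day 13 the CD8 ratio was log2 0.92 for the G2/M sum and 0.98 for the S-phase sum, and at day 19 1.19 and 0.69. At day 13, 23 of 25 G2/M and 16 of 17 S-phase members were over 1.5-fold higher in CD8 cells (10.8% of all genes), and at day 19 24 and 13 were (11.7%). All 4 sets had the higher value in CD8 cells for 20 and 17 members at day 13 (20.8% of all genes) and for 24 and 14 at day 19 (18%). The farthest were Ccnb2 (1.46), Rrm2 (1.40) and Ccne1 (1.26) at day 13, and Ube2c (1.69), Bub1 (1.67) and Nusap1 (1.54) at day 19. Ccnb1 (0.41), Pcna (0.50) and Kif15 (0.52) were nearest at day 13, and Kif15 (-0.20), Ccne2 (0.18) and Pcna (0.23) at day 19. CD4 droplets held more macrophage RNA: 50.42% of Foxp3-negative droplets at day 13 had at least 2 macrophage markers against 20.21% of CD8 droplets. Without such droplets the day 13 count was 20 members in place of 39, and in sums of thinned counts it was 22.

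Within CD4 cells, the order of Foxp3-positive and Foxp3-negative cells in the CPM sums differed between the days. The share of cells with at least 3 G2/M members was close at day 13, with 8.673% of Foxp3-positive and 9.318% of Foxp3-negative cells (15.82 and 15.47% without thinning), and sets 1 and 2 were higher in Foxp3-positive cells. At day 19 it was 28.83 and 16.08%. At day 13 the G2/M sum of Foxp3-positive cells was lower than that of Foxp3-negative cells (377.9 and 626.7 CPM, -0.73), and at day 19 it was higher (1496 and 770.4 CPM, 0.96). The S-phase ratios were -0.32 and 0.57. At day 13, 19 G2/M and 8 S-phase members were over 1.5-fold lower in Foxp3-positive cells (13.3% of all genes) and Ccne2 was higher (12.9%), from 6 and 12 UMIs (0.59, -1.11 to 2.11). At day 19, 22 and 11 were higher (10.8%) and none was lower (12.1%). Mki67 had a ratio of -0.52 (-0.88 to -0.17) at day 13 and 0.91 at day 19, Top2a -0.69 and 0.84, Cdk1 -1.0 and 0.99, and Ccnb1 -1.58 and 1.19. The lowest at day 13 were Cdc45 (-2.11), Cdc20 (-1.64) and the mitotic kinase gene Plk1 (-1.60). The highest at day 19 were Bub1 (1.76) and the Aurora kinase genes Aurkb (1.30) and Aurka (1.27), and the lowest Kif15 (-0.28), Ccne1 (0.05) and Dut (0.15). Within sets, 8 of 22 G2/M and 6 of 14 S-phase members were lower in each of the 4 sets at day 13 (12.1% of all genes), and 18 of 25 and 13 of 16 were higher in each at day 19 (12.1%). The day 13 direction depended on the depth: the G2/M ratio was 0.58 at 2000 UMIs and -0.05 at 8000, and -1.49 without droplets with macrophage markers. The day 19 ratio was 0.12 at 2000 UMIs, with 1 member past the fold, and 0.82 at 8000.

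**Figure D3:**
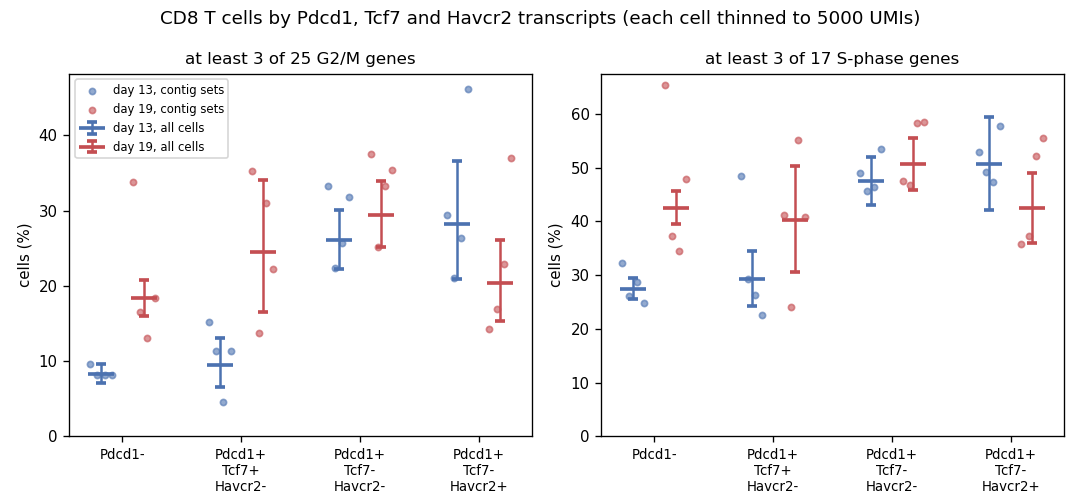
Share of CD8 cells with at least 3 G2/M or S-phase members (percent of cells thinned to 5000 UMIs) by Pdcd1, Tcf7 and Havcr2 state and day; bars are all cells with 95% exact binomial intervals and points are contig sets. The Pdcd1-positive Tcf7-positive Havcr2-negative bars differ most between days for G2/M (9.422% and 24.51%).

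Among CD8 cells, those with a Pdcd1 UMI carried more of the G2/M genes on both days, and more of the S-phase genes at day 13. The G2/M share was 8.308% of 1962 Pdcd1-negative and 20.76% of 997 Pdcd1-positive cells at day 13, and 18.36% of 1035 and 25.88% of 765 at day 19. Pdcd1-negative sets read 9.565, 8.148, 8.131 and 8.146% at day 13 and 33.86, 16.56, 13.12 and 18.38% at day 19. Pdcd1-positive sets read 27.36, 18.56, 17.71 and 27.33% and then 31.94, 21.53, 28.78 and 33.09%, so day 19 set 1 had the lower share in Pdcd1-positive cells. At day 13 all 25 G2/M and 12 of 17 S-phase members were over 1.5-fold higher in Pdcd1-positive cells (12.2% of all genes), led by Tk1 (1.21), Kif15 (1.20) and Aurkb (1.20). Mki67 was at 133.5 against 61.85 CPM (1.11) and Cdk1 at a ratio of 1.05, and the least apart were Pcna (0.45), Ccne1 (0.50) and Mcm7 (0.52). Each of the 4 sets was higher for 24 G2/M and 16 S-phase members (25.8% of all genes). At day 19 each of the 4 sets was higher for 14 G2/M and 1 S-phase member (20.6%). There 19 G2/M and no S-phase members were over 1.5-fold higher (13.2%), led by Ube2c (0.98), Cenpe (0.95) and Cenpf (0.92). The S-phase genes Mcm2 (-0.10), Mcm4 (-0.07), Gins2 (-0.05), Pcna (-0.04) and Mcm5 (0.04) were level. The summed ratios were 0.99 and 0.74 at day 13 and 0.74 and 0.18 at day 19 for G2/M and S phase. Leaving out a set changed the day 19 count from 19 to between 14 and 26.

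The Tcf7-positive state was where the days differed most within Pdcd1-positive CD8 cells. At day 13, 9.422% of the 329 Tcf7-positive Havcr2-negative cells had at least 3 G2/M members (6.492 to 13.11%), and 26.04% of 507 cells with neither gene and 28.26% of 138 Tcf7-negative Havcr2-positive cells (20.93 to 36.55%) did. At day 19 the shares were 24.51% of 102 (16.53 to 34.02%), 29.44% of 428 and 20.35% of 231 (15.35 to 26.12%). The Tcf7-positive sets read 15.15, 11.28, 4.545 and 11.32% at day 13 and 35.29, 13.79, 31.03 and 22.22% at day 19, and overlapped at 1 day 19 set of 29 cells. Their G2/M sums read 943.6, 917.9, 391.5 and 331.0 CPM and then 2004, 1353, 2539 and 1311 CPM, which did not overlap. The Havcr2-positive sets read 29.41, 21.05, 26.32 and 46.15% and then 14.29, 16.9, 22.92 and 37.04%, with broad overlap. Cells with both Tcf7 and Havcr2 were few (23 and 4) and are not compared. Cells with a Havcr2 UMI were deeper (median 11400 UMIs at day 13 against 7115 in the Tcf7-positive cells, and 11730 against 8812 at day 19), and the states were set after thinning to a common depth.

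Gene by gene, Havcr2-positive Tcf7-negative cells at day 13 were over 1.5-fold above Tcf7-positive Havcr2-negative cells for all 25 G2/M and 15 of 17 S-phase members (21% of all genes). The leading ones were Plk1 (2.30), Hmmr (2.24) and the midzone protein gene Prc1 (2.12), Mki67 was at 181.5 and 59.83 CPM (1.60), and the least apart were Ccne1 (0.38), Mcm7 (0.57) and Pcna (0.62). Within sets, 16 of 23 G2/M and 8 of 15 S-phase members were higher in all 4 (17%). At day 19 no member was over 1.5-fold higher (14.8%) and 6 S-phase members were lower (19%). Mki67 was at 134.6 and 156.3 CPM (-0.22, -0.47 to 0.05), Cdk1 at 0.29, Top2a at 0.05 and Ccnb1 at -0.06. The S-phase genes Cdc45 (-0.86, -1.57 to -0.12), Ccne1 (-0.71), Rrm2 (-0.70, -1.0 to -0.39) and Mcm5 (-0.65, -0.98 to -0.32) were the lowest in Havcr2-positive cells, and Aurka (0.49), Ube2c (0.42) and Prc1 (0.39) the highest. Of 15 S-phase members with at least 50 UMIs, Mcm4, Mcm5, Mcm6 and Cdc45 were lower in every set (13.6% of all genes). The summed ratios were 1.54 for G2/M and 0.94 for S phase at day 13 and 0.06 and -0.27 at day 19. The day 19 values rest on single sets: the G2/M ratio was -0.47 without day 19 set 4 and 0.49 without day 19 set 2, when 11 members passed the fold, and the S-phase ratio was 0.00 without day 19 set 3. At a depth of 2000 UMIs the day 19 G2/M ratio was 0.87 with 22 members past the fold.

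Followed within a state, the G2/M sum of Tcf7-positive Havcr2-negative cells was 663.4 CPM at day 13 and 1819 CPM at day 19, and the S-phase sum 883.1 and 1539 CPM. All 25 G2/M and 13 S-phase members were over 1.5-fold higher at day 19 (18.5% of all genes), led by Cenpf (2.30), Hmmr (2.12) and Ccnb2 (1.90), and 9 of 22 G2/M and 0 of 15 S-phase members had sets that did not overlap (3.96%). In Havcr2-positive Tcf7-negative cells the G2/M sum was 1930 and 1899 CPM while the S-phase sum was 1691 and 1275 CPM. None of their G2/M members and 6 of the S-phase members were over 1.5-fold lower at day 19 (15.4%), led by Cdc6 (-0.93), Cdc45 (-0.73) and Mcm4 (-0.65), and the sets were apart for 2 of 16, Pcna and Mcm2 (3.96%). Their day 19 sets were spread widely, at 998.9, 1162, 2269 and 4227 CPM of G2/M RNA. Cells with neither Tcf7 nor Havcr2 had the highest G2/M sums of the states on both days, 2132 and 2509 CPM. Against them, Havcr2-positive cells at day 19 had 0 of 25 G2/M and 2 of 17 S-phase members over 1.5-fold lower, where 9.42% of all genes were. The 2 were Tk1 (-0.59) and Cdc45 (-0.82). The ratio of the G2/M to the S-phase sum was 0.7512 and 1.182 in Tcf7-positive cells, 1.137 and 1.576 in cells with neither gene and 1.141 and 1.489 in Havcr2-positive cells.

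**Figure D4:**
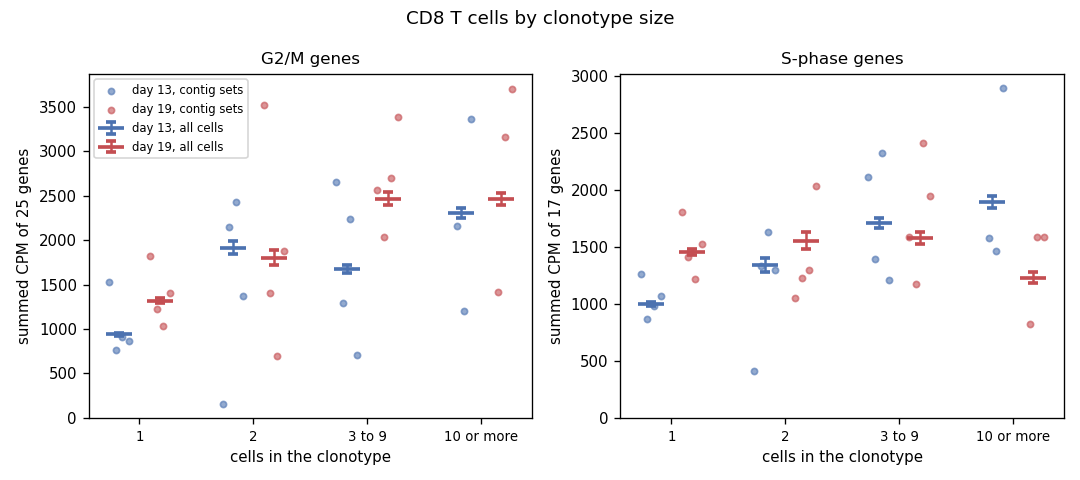
Summed CPM of the 25 G2/M members and of the 17 S-phase members (UMI sums, not thinned) in CD8 cells, by clonotype size and day. Bars are all cells with 95% exact Poisson intervals and points are contig sets. Clonotypes of 10 or more cells lie at 2307 and 2463 CPM for G2/M, above single cells at 943.3 and 1319 CPM.

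A clonotype here is a group of kept cells of 1 class and contig set with identical receptor CDR3 sequences (1 alpha and 1 beta chain). Its size therefore depends on how many cells of that day and set were captured and had at least 5000 gene UMIs. CD8 cells of clonotypes of 3 or more had medians of 8612 and 11160 UMIs at day 13 and 19, single ones 7075 and 8479. Cells high in the G2/M score were deeper too, and the part of this cut in the values by size was not tested. Expanded clonotypes recurred in another set of the day for 6.383 to 11.11% at day 13 and 25.71 to 40% at day 19, so the day 19 sets share clones. CD8 cells that were alone in their clonotype had at least 3 G2/M members in 8.92% of 1491 cells at day 13 and 17.34% of 767 at day 19. Cells of clonotypes of 3 or more had them in 24.52% of 518 and 28.27% of 336. The sets of the larger clonotypes read 33.33, 21.45, 21.9 and 36.62% at day 13 and 42.86, 16.29, 40.3 and 42.86% at day 19, and set 2 was the low one at day 19. Each set lay above its own single cells, which read 12.5, 8.23, 7.621 and 10.18% and then 31.11, 13.62, 14.63 and 19.47%. Without day 19 set 2 the share of the larger clonotypes at day 19 was 41.77%.

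At day 13 nearly all members were higher in the larger CD8 clonotypes: 25 of 25 G2/M and 16 of 17 S-phase members passed 1.5-fold (15.3% of all genes), and 24 and 17 were higher in each of the 4 sets (24.4%). Cdk1 (1.42), Gins2 (1.32) and Tk1 (1.29) led, and Mcm7 (0.54), Kif23 (0.60) and Pcna (0.61) were least apart. At day 19 the groups of genes parted. Of the G2/M members 19 passed 1.5-fold higher (15% of all genes) and 18 were higher in every set (19.2%), led by Ube2c (1.45), Ccnb1 (1.36) and Cenpa (1.26), the centromere histone gene. Of the S-phase members none was over 1.5-fold higher and 1 was lower (15%), the replication helicase gene Gins2 (-0.67, -1.04 to -0.32), followed by Mcm7 (-0.54), Mcm2 (-0.48), Pcna (-0.27) and Mcm5 (-0.25). Mki67 was at 0.56 and Top2a at 0.56. The summed ratios were 1.07 for G2/M and 0.85 for S phase at day 13, and 0.90 and -0.06 at day 19. The day 19 S-phase ratio was 0.21 without day 19 set 2 and 0.12 without clonotypes of 10 or more cells. The day 19 count of 19 members was 25 without day 19 set 2 and 12 without day 19 set 3.

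In the largest CD8 clonotypes summed S-phase RNA was lower at day 19 while summed G2/M RNA was not, in 14 clonotypes at day 13 and 5 at day 19. In CD8 clonotypes of 10 or more cells the G2/M sum was 2307 CPM in 252 cells at day 13 and 2463 CPM in 178 at day 19, and the S-phase sum 1895 and 1233 CPM. The 3 sets with such clonotypes (2, 3 and 4) read 1580, 1462 and 2900 CPM of S-phase RNA at day 13 and 827.3, 1585 and 1589 CPM at day 19, which overlap. Day 13 set 4, the highest, was 1 clonotype of 32 cells, and day 19 set 2, the lowest, held 98 of the 178 cells. Of 17 S-phase members 12 were over 1.5-fold lower at day 19 (16.8% of all genes), led by Gins2 (-1.42), Mcm2 (-1.13) and Ccne1 (-1.11), with Mcm5 at -1.05 and Pcna at -0.87, and Pcna, Mcm2, Mcm5, Ccne1 and Gins2, 5 of 16, had sets that did not overlap (7.06%). The share of these cells with at least 3 S-phase members was 48.81% (42.49 to 55.16%) and 39.89% (32.64 to 47.48%), in intervals that overlap. Without thinning it was 60.71 and 67.98%, in the other direction. Their ratio of the G2/M to the S-phase sum was 1.217 and 1.997. In CD8 cells alone in their clonotype the S-phase sum was higher at day 19 (1000 and 1460 CPM), as was the G2/M sum (943.3 and 1319 CPM), with 8 G2/M and 6 S-phase members over 1.5-fold higher (11%).

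**Figure D5:**
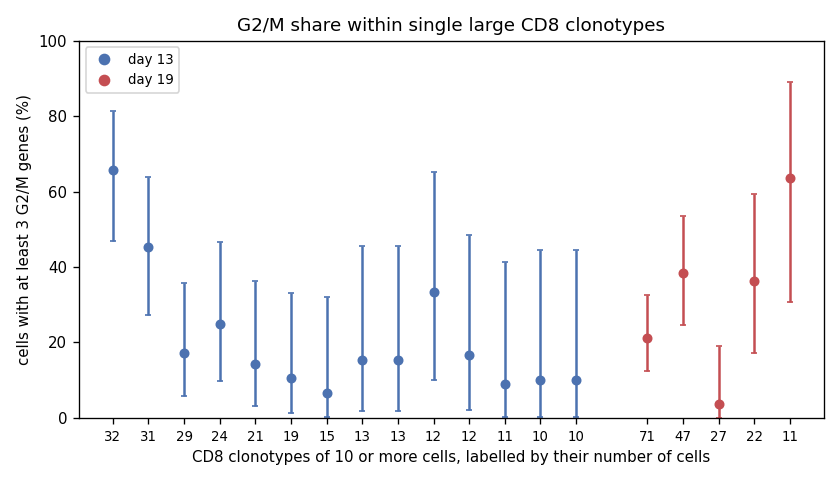
Share of cells with at least 3 G2/M members (percent) in each CD8 clonotype of 10 or more cells, with 95% exact binomial intervals, by day. Each point is 1 clonotype. The clonotypes range from 6.667 to 65.62% at day 13 and from 3.704 to 63.64% at day 19.

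Large CD8 clonotypes of the same day ranged widely in their G2/M shares. The intervals of the highest and the lowest did not overlap on either day, but these clonotypes were picked by their values. Others did overlap, such as 45.16% (27.32 to 63.97%) and 14.29% (3.05 to 36.34%) at day 13. At day 13 the 14 CD8 clonotypes of 10 or more cells had at least 3 G2/M members in 6.667 to 65.62% of cells, with a median of 15.38%. In the highest, 21 of 32 cells did (46.81 to 81.43%), 31 of the 32 had a Pdcd1 UMI, and the median depth was 20500 UMIs, the deepest of the 14. The next had 14 of 31 cells (45.16%), and 4 clonotypes were at or under 10.0%. At day 19 the largest CD8 clonotype, of 71 cells, had 21.13% (12.33 to 32.44%), and the others 38.3% of 47, 3.704% of 27 (0.0937 to 18.97%), 36.36% of 22 and 63.64% of 11. The cells of each clonotype come from 1 set and share their ancestry. The 3 CD4 clonotypes of 10 or more cells, all of day 19, had 9.091% of 33, 7.692% of 13 and 10.0% of 10 cells, and 1 cell in the 3 had a Foxp3 UMI.

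CD4 clonotypes were smaller, and few cells set their day 13 values. At day 13, 466 cells were alone in their clonotype and 55 were in clonotypes of 2 or more, with G2/M shares of 7.296 and 9.091%. At day 19 the numbers were 302 and 254 and the shares 21.19 and 17.32%. Without day 19 set 2 these shares were 22.78 and 26.32%, and their order turned. At day 13, 12 G2/M and 7 S-phase members were over 1.5-fold higher in the shared clonotypes (24.4% of all genes) and 3 and 1 were lower (13.8%), Cdc20 and Cdc6 (1 UMI each in the shared clonotypes), Cenpf (2 UMIs) and Ube2c (-0.94, -1.84 to -0.17), and none was higher in each of the 4 sets (5.14%). The G2/M ratio of 0.57 became -1.52 without day 13 set 1, where 16 of those 55 cells lay. At day 19 Kif15 (0.67) and Cdc6 (0.65) were over 1.5-fold higher (8.67%) and Aurka (-0.72), Bub1 (-0.76) and Ccne2 (-0.63) lower (9.85%), with sums at 0.10 and 0.03, and 12 members passed the fold without day 19 set 2. CD4 cells alone in their clonotype had 25 G2/M and 15 S-phase members over 1.5-fold higher at day 19 than at day 13 (13.5%), with G2/M sums of 443.2 and 1023 CPM.

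Other genes of the cycle, outside the 42, were counted in the same way. In CD8 cells, 16 of 50 other G2/M genes were over 1.5-fold higher at day 19 and 1 was lower (Pttg1, the securin gene, -0.64), and 2 of 37 other S-phase genes were higher and none lower. Of 11 genes of entry into the cycle 1 was higher, Cdk6, the G1 kinase gene (38.42 and 83.3 CPM, 1.12), and 1 lower, Ccnd1 (-0.61). Among 18 genes that brake division, Cdkn2a (2.41), Cdkn2c (0.75) and Cdkn2b (0.64), which inhibit Cdk4 and Cdk6, were higher at day 19. Klf2, a gene of resting T cells (803.3 and 441.0 CPM, -0.87), Cdkn1b (-0.66) and Tob1 (-0.62) were lower. In Foxp3-positive CD4 cells 41 of 50 other G2/M and 33 of 37 other S-phase genes were over 1.5-fold higher at day 19 and 1 and 0 lower, with Klf2 at -0.97 and Cdkn1b at -0.67. In Foxp3-negative CD4 cells the counts were 6 higher and 3 lower of 50, and 12 higher and 0 lower of 37. In the larger CD8 clonotypes at day 19, Klf2 (-2.83), Ccnd2 (-1.47) and Myc (-1.30) were lower and Cdkn2a (2.77) and Cdk6 (1.17) higher than in single cells. The Havcr2-positive Tcf7-negative cells of day 19 had 17 of 37 other S-phase genes over 1.5-fold lower and 0 higher, among them Ung (-1.78) and Uhrf1 (-1.09), with Myc at -1.34 and Cdk6 at 1.91. For the same comparisons the share of all genes is given above, and 12.8% of all genes were over 1.5-fold lower at day 19 in Foxp3-positive and 11.9% in Foxp3-negative cells.

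Cells with at least 3 G2/M members also carried other genes of the division program. At day 13 such CD8 cells were compared with CD8 cells with no UMI of any member (370 and 330 cells). Pclaf, a Pcna partner, was at 688.1 and 1.471 CPM (8.87), and Stmn1, the tubulin regulator stathmin, at 804.7 and 6.252 CPM (7.01). The condensin gene Ncapg was at a log2 ratio of 7.63 (5.15 to 12.94) and the cohesion gene Cdca5 at 7.29 (4.81 to 12.6). In the cells with no member Pclaf had 4 UMIs, and Ncapg and Cdca5 had 1 each. Gzmf also stood among the highest genes (a lower bound of 7.17). Of its UMIs in the cells with at least 3 G2/M members, 59.94% came from 1 cell. Genes of state differed in the same cells at day 13: Pdcd1 was at 272.2 and 99.66 CPM (1.45), Gzmb, which encodes granzyme B, at 1.42, Havcr2 at 1.17 and Tcf7 at 89.92 and 272.1 CPM (-1.60). At day 19 Pdcd1 was nearly level (272.9 and 239.3 CPM, 0.19), Gzmb was at 0.41, Havcr2 at 0.51 and Tcf7 at -0.83. The CD279 (PD-1) antibody tag had a median of 122.8 per 10000 tag UMIs in cells with at least 3 G2/M members and 119.8 in cells with none at day 13, in interquartile ranges that overlap (111.8 to 136.9 and 107.2 to 132.5). It was at 125.4 and 123.9 in CD8 cells at day 19. In CD4 cells it was at 120.8 and 119.6 at day 13 and at 116.9 and 118.9 at day 19. Whether a tag this level across groups resolves PD-1 protein was not tested. In the same CD8 cells the CD62L tag was at 5.173 and 9.213 at day 13 and at 5.01 and 11.69 at day 19. These medians lay under those of the IgG2b tag. CD44 was at 18.26 and 17.41 and then at 31.44 and 20.28, and CD39 at 146.0 and 140.0 and then at 163.7 and 150.9. CD25 was at 5.4 and 5.735 and then at 5.243 and 5.35, and CD366 at 32.79 and 31.11 and then at 32.68 and 32.2. Interquartile ranges overlapped for all of these tags. The cells compared differed in depth, with medians of 16510 and 7076 UMIs at day 13, and the cells with no member were chosen for having no UMI, so shallow and resting cells cannot be told apart among them.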

How the data were processed

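CD3+ T cells of 1 capture per day were measured. The deposited matrices hold whole-number UMI counts of 32285 genes and 138 antibody tags per barcode, not normalized by the authors, beside the contig tables, called contig sets here. Cell Ranger 4.0.0, STAR 2.7.5c, bcl2fastq 2.20, R 4.1.2, Seurat and the build mm10 are named in the submitters' processing notes, with no role given.

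Contig barcodes with at least 5000 gene UMIs and at most 10% mitochondrial UMIs were kept, with a total of 45254423 and 39526363 gene UMIs. Counts were thinned once to 5000 UMIs per cell (seed 1) for shares, Foxp3 and state. CPM are UMI sums of a group over all its gene UMIs, not thinned, with exact Poisson intervals, shares have exact Clopper-Pearson intervals, and a ratio of 2 sums has an exact conditional interval. A gene at 0 in 1 sum was set to a floor of 3 counts. With 1 capture per day no test was made, and the contig sets are parts of 1 capture. The ratio step was tested on simulated data. Python 3.11.15, numpy 2.4.6, scipy 1.17.1, pandas 2.3.3 and matplotlib 3.10.9 were used.

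The members, lists, classes and comparisons were chosen with earlier results of these data known, so nothing here is independent support for them. Members named in a comparison came mostly from the 3 highest and 3 lowest with at least 50 UMIs. Others named were mostly Mki67, Top2a, Cdk1, Ccnb1, Pcna, Mcm5, Rrm2, Tyms, Ccne1 and Ccne2. Not all of these are printed in each comparison, and some members outside them are, such as Rrm1, Mcm7 and Mcm2 in CD8 cells between days. Names of other lists were taken from the 3 highest and lowest, and of cells with at least 3 G2/M members a choice among the 10 highest genes with at least 100 UMIs is given. Genes named as a count of 5 or fewer were chosen after their values were seen. Alternatives changed the depth, the number of members, the fold, the classes, the deepest and macrophage-marked droplets and each contig set. Cells in neither class and cells with more or fewer than 1 alpha and 1 beta chain entered no class or clonotype comparison. A gene and a tag among those measured are not reported here.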

Additional observations from a re-analysis of the deposited data

Results flagged for a closer look

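In 3 comparisons the 2 days gave opposite directions, and no test of the difference between the days was possible with 1 capture per day, so it was not tested. Foxp3-positive against Foxp3-negative CD4 T cells had a log2 ratio of -0.73 for the G2/M members at day 13 and 0.96 at day 19, and of -0.32 and 0.57 for the S-phase members. At a depth of 2000 UMIs the G2/M ratios were 0.58 and 0.12, in the same direction, and at 8000 UMIs -0.05 and 0.82. Havcr2-positive Tcf7-negative against Tcf7-positive Havcr2-negative CD8 T cells had S-phase ratios of 0.94 at day 13 and -0.27 at day 19. The last was 0.00 without day 19 contig set 3 and 0.02 at 2000 UMIs. CD8 clonotypes of 3 or more cells against single cells had S-phase ratios of 0.85 at day 13 and -0.06 at day 19, the last so near 0 that leaving out day 19 contig set 2 gave 0.21.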

How the results depend on the processing

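The results were 44 shares and 15 counts of members past 1.5-fold higher, and summed ratios under the same alternatives stand beside the results they change. A share counts as moved outside its 95% binomial interval and a count when it changed by over 1.5 times. The share of all genes past the fold is not given for these alternatives, so their counts show only how far the number of members moved. Leaving out barcodes with 2 or more beta chain contigs moved none of the 59 by these limits. Shares depend on depth and on the number of members asked for, so their level is set by these choices. Shares below stand in the order CD8, Foxp3-negative CD4, Foxp3-positive CD4, Pdcd1-negative CD8, Pdcd1-positive CD8 with Tcf7 alone, with neither Tcf7 nor Havcr2, with Havcr2 alone, CD8 single cells, CD8 clonotypes of 3 or more, CD4 single cells and CD4 clonotypes of 2 or more. At 2000 UMIs the G2/M shares were 6.43, 2.21, 2.73, 5.7, 1.98, 10.4, 13.3, 4.68, 12.2, 1.96 and 2.6% at day 13, and 14.2, 7.62, 7.81, 12.5, 10.5, 19.4, 18.9, 10.8, 21.4, 6.81 and 7.74% at day 19. At 2000 UMIs the S-phase shares were 11.6, 5.58, 3.91, 9.84, 6.44, 19.8, 25, 9.31, 21.8, 4.81 and 7.81% at day 13, and 20.4, 11.5, 12, 19.6, 14, 23.2, 25.3, 20.6, 21.2, 9.67 and 14.9% at day 19. At 2000 UMIs the count of members was 38 for Foxp3-negative by day, 11 for Foxp3-positive against -negative (day 13), 17 for Pdcd1 (day 13), 9 for CD4 clonotypes (day 13), 1 for Foxp3-positive against -negative (day 19), 12 for Pdcd1 (day 19) and 22 for Havcr2 against Tcf7 (day 19). At 8000 UMIs the G2/M shares were 29.7, 13.5, 13.2, 19.6, 24.3, 49.6, 43.3, 24.2, 49.2, 13.4 and 0% at day 13, and 35.5, 27.4, 38, 29.9, 43.3, 45.7, 32.8, 33.6, 36.5, 30.7 and 29.8% at day 19. At 8000 UMIs the S-phase shares were 61, 33.8, 38, 54.5, 53.6, 75, 72.3, 59.2, 74, 36 and 27.8% at day 13, and 67.9, 49.6, 60.3, 68.7, 74.2, 70.3, 62.5, 70.9, 63.5, 52.2 and 54.7% at day 19. At 8000 UMIs the count of members was 0 for CD8 by day, 0 for Foxp3-positive against -negative (day 13), 8 for CD4 clonotypes (day 13) and 1 for CD4 clonotypes (day 19). Without thinning the G2/M shares were 17.2, 15.5, 15.8, 11.6, 13.7, 34.5, 38.4, 11.9, 34, 13.9 and 12.7% at day 13, and 29.9, 32.2, 41, 24.9, 29.4, 39.5, 34.6, 23.6, 38.1, 33.4 and 32.7% at day 19. Without thinning the S-phase shares were 47.2, 43.4, 40.8, 42.3, 44.1, 61.7, 66.7, 42.4, 61.4, 41.9 and 43.6% at day 13, and 62.6, 59.3, 61.7, 57.7, 54.9, 71.3, 72.3, 55.8, 68.5, 55.6 and 60.2% at day 19. With at least 2 members the G2/M shares were 19.6, 18.8, 20.9, 13.6, 21.6, 36.3, 36.2, 14, 37.8, 18.2 and 16.4% at day 13, and 28.4, 32.2, 38.7, 23.3, 31.4, 37.6, 33.3, 22.8, 36, 34.4 and 32.3% at day 19. With at least 2 members the S-phase shares were 54.5, 45.4, 41.3, 50.2, 54.7, 67.3, 67.4, 51.5, 67.8, 44.6 and 36.4% at day 13, and 63, 54.7, 59.5, 60.3, 59.8, 68.7, 66.2, 59.97, 66.4, 51.7 and 61.4% at day 19. With at least 5 members the G2/M shares were 9.26, 4.16, 2.04, 6.47, 4.56, 19.7, 20.3, 6.44, 18.7, 2.36 and 7.27% at day 13, and 17.5, 9.27, 18, 14.6, 18.6, 24.5, 17.3, 13.3, 23.2, 13.2 and 10.6% at day 19. With at least 5 members the S-phase shares were 15.6, 7.16, 6.12, 11.4, 10.3, 30.4, 31.9, 12.3, 30.1, 5.79 and 9.09% at day 13, and 26.6, 13.6, 23.9, 25, 24.5, 32.9, 23.4, 27.4, 26.5, 17.2 and 15% at day 19. In sums of thinned counts the count of members was 27 for CD8 by day, 23 for Foxp3-negative by day, 22 for CD8 against Foxp3-negative (day 13), 3 for Foxp3-positive against -negative (day 13), 5 for Havcr2 against Tcf7 (day 19) and 5 for CD4 clonotypes (day 19). At the lower fold tried the count of members was 31 for CD8 by day, 25 for Foxp3-negative by day, 4 for Havcr2 against Tcf7 (day 19) and 8 for CD4 clonotypes (day 19). At a fold of 2 the count of members was 0 for CD8 by day, 2 for Foxp3-negative by day, 18 for CD8 against Foxp3-negative (day 13), 0 for Foxp3-positive against -negative (day 13), 15 for Pdcd1 (day 13), 24 for CD8 clonotypes (day 13), 23 for CD8 against Foxp3-negative (day 19), 13 for Foxp3-positive against -negative (day 19), 0 for Pdcd1 (day 19), 9 for CD8 clonotypes (day 19) and 0 for CD4 clonotypes (day 19). Over members with at least 50 UMIs the count of members was 0 for Foxp3-positive against -negative (day 13). Without droplets with 2 or more macrophage markers the count of members was 20 for CD8 against Foxp3-negative (day 13) and 4 for CD4 clonotypes (day 19), and shares were 19.6% in CD8 (day 19, G2/M), 12.2% in Foxp3-negative CD4 (day 19, G2/M), 28.4% in Foxp3-negative CD4 (day 19, S-phase), 39.4% in Pdcd1-negative CD8 (day 19, S-phase), 9.8% in larger-clone CD4 (day 19, G2/M) and 29.4% in larger-clone CD4 (day 19, S-phase). Without the 5% deepest cells of each class the count of members was 30 for CD8 by day, 29 for Foxp3-negative by day, 0 for Foxp3-positive against -negative (day 13) and 5 for CD4 clonotypes (day 19), and shares were 9.36% in CD8 (day 13, G2/M), 29.5% in CD8 (day 13, S-phase), 18.6% in CD8 (day 19, G2/M), 6.32% in Pdcd1-negative CD8 (day 13, G2/M), 15.8% in Pdcd1-negative CD8 (day 19, G2/M), 19.2% in cells with neither gene (day 13, G2/M), 41.8% in cells with neither gene (day 13, S-phase), 6.86% in single CD8 (day 13, G2/M), 18% in larger-clone CD8 (day 13, G2/M) and 42.3% in larger-clone CD8 (day 13, S-phase). With states and Foxp3 read without thinning the count of members was 0 for Foxp3-positive against -negative (day 13) and 31 for Pdcd1 (day 19), and shares were 4.61% in Pdcd1-negative CD8 (day 13, G2/M), 23.4% in Pdcd1-negative CD8 (day 13, S-phase), 13.5% in Pdcd1-negative CD8 (day 19, G2/M), 38.3% in Pdcd1-negative CD8 (day 19, S-phase), 13.8% in Tcf7-positive (day 13, G2/M), 55.3% in Tcf7-positive (day 19, S-phase), 39.6% in Havcr2-positive (day 13, G2/M), 61.5% in Havcr2-positive (day 13, S-phase) and 30.3% in Havcr2-positive (day 19, G2/M). With classes set by at least 2 UMIs the count of members was 0 for Foxp3-positive against -negative (day 13), 11 for CD4 clonotypes (day 13) and 6 for CD4 clonotypes (day 19). With equal weights per contig set the count of members was 0 for Foxp3-positive against -negative (day 13), 3 for Havcr2 against Tcf7 (day 19) and 4 for CD4 clonotypes (day 19), and shares were 23.8% in CD8 (day 19, G2/M), 47.4% in CD8 (day 19, S-phase), 46.2% in Pdcd1-negative CD8 (day 19, S-phase), 35.6% in larger-clone CD8 (day 19, G2/M), 55.5% in larger-clone CD8 (day 19, S-phase), 23.5% in larger-clone CD4 (day 19, G2/M) and 47.5% in larger-clone CD4 (day 19, S-phase). Without clonotypes of 10 or more cells, an alternative chosen after seeing the data, shares were 11.3% in CD8 (day 13, G2/M) and 53.2% in larger-clone CD8 (day 19, S-phase). Leaving out 1 contig set at a time gave counts of 5 to 13 for Foxp3-negative by day, 0 to 1 for Foxp3-positive against -negative (day 13), 7 to 24 for CD4 clonotypes (day 13), 0 to 11 for Havcr2 against Tcf7 (day 19), 12 to 25 for CD8 clonotypes (day 19) and 1 to 12 for CD4 clonotypes (day 19). The shares under the same omission ran from 22.6 to 28.8% in larger-clone CD8 (day 13, G2/M), 20.1 to 24% in CD8 (day 19, G2/M), 42.7 to 48.8% in CD8 (day 19, S-phase), 14.8 to 19.9% in Foxp3-negative CD4 (day 19, G2/M), 30.2 to 38.4% in Foxp3-negative CD4 (day 19, S-phase), 39.3 to 46.6% in Pdcd1-negative CD8 (day 19, S-phase), 28 to 35.2% in cells with neither gene (day 19, G2/M), 48.8 to 56% in cells with neither gene (day 19, S-phase), 39.9 to 50.6% in Havcr2-positive (day 19, S-phase), 40.2 to 46.6% in single CD8 (day 19, S-phase), 25.3 to 41.8% in larger-clone CD8 (day 19, G2/M), 42 to 63.3% in larger-clone CD8 (day 19, S-phase) and 13.6 to 26.3% in larger-clone CD4 (day 19, G2/M). No paired analysis was possible because each day is 1 capture and the contig sets carry no number that ties them across the days. The cause of these changes was not tested. With 1 capture per day, the spread between tumors could not be measured, and genes with few UMIs in Foxp3-positive cells at day 13 are limited by depth.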

Other observations

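CD4 cells with at least 3 G2/M members (73 at day 13) were compared with 92 CD4 cells that had no UMI of any member. Pclaf was at 365.5 and 1.917 CPM and Stmn1 at 532.1 and 8.625 CPM, while Pdcd1 (140.6 and 115.0 CPM) and Tcf7 (201.1 and 200.3 CPM) were nearly level. At day 19 the same comparison in CD4 cells gave Pdcd1 at 220.8 and 155.9 CPM and Tcf7 at 68.92 and 131.4 CPM. Il2ra, which encodes the high-affinity interleukin-2 receptor chain, was at 157.9 and 60.38 CPM at day 13 and 280.1 and 162.8 CPM at day 19. The lowest genes at day 13 were macrophage genes, with Gpnmb at 2.163 and 331.6 CPM and Lyz2 at 74.62 and 2750 CPM. The part of macrophage RNA in the droplets with no member was not tested. Jchain stood among the highest genes, but all of its UMIs in the cells with at least 3 G2/M members came from 1 cell.

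In the regulatory cells of day 13, 3 of 196 had UMIs of 11 to 25 G2/M members and none had 6 to 10, and at day 19 21 of 222 had 11 to 25. The edge of the score held 24 cells with 2 members and 11 with 3 at day 13, and 22 and 10 at day 19, so at day 13 11 of the 17 regulatory cells counted as having at least 3 members had exactly 3. In CD8 cells of day 13 that was 70 of 370.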
